A study of Mus musculus with 14 samples.

Results

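The 36 genes described here are regulators and known targets of the transcription factor NRF2, encoded by Nfe2l2, which runs an antioxidant and detoxification programme. They were picked by symbol from the 43472 genes listed in each expression table, with earlier results of these data known. All 36 had enough reads to be tested. They were sorted by function into 4 regulators, 6 genes of glutathione synthesis and use, 5 thioredoxin and peroxiredoxin genes, 6 genes of NADPH supply, 5 glutathione transferases, 3 transporters and 7 other detoxification enzymes. In wounded fibroblasts given micrograft for 5 h, 12 of the 36 were higher at an adjusted p under 0.05 (0.97% of all genes) and 0 were lower (0.267% of all genes). That fit left out the replicate numbers. With libraries paired by number, 27 were higher (17.9% of all genes) and 2 were lower (19.3% of all genes). Slc7a11, the cystine carrier that feeds glutathione synthesis, changed the most (log2 fold change 5.43).

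As background, NRF2 is held in the cytoplasm by KEAP1, an adaptor that directs it to the proteasome. Oxidants and electrophiles modify cysteines of KEAP1, NRF2 then accumulates, pairs with a small MAF protein such as MAFG and binds antioxidant response elements near its target genes. Known targets make glutathione, recycle thioredoxin, supply NADPH and conjugate or export reactive compounds, and the programme is well known in skin and in fibroblasts under oxidative stress.

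The cells were primary fibroblasts grown from the tail tips of C57BL/6 mice, kept in DMEM with fetal bovine serum and wounded with a scratch. Untreated wounded cells were set against cells given autologous micrograft (AMG), a soluble extract of mouse skin that was broken mechanically, filtered, spun to remove cells and debris, and diluted 1:10 in the medium. Replicate 1 of each group was taken at 1, 5, 12 and 24 h, and replicates 2, 3 and 4 at 5 h only, which makes 14 libraries of stranded mRNA in all. Both arms were scratched, so the contrast is of AMG on a wounded culture, and the sources used here do not say whether skin and fibroblasts came from the same mouse. The labels do not say whether replicates came from separate mice or cultures, so p-values measure the spread between these libraries only. Values are normalised counts, which are reads per gene divided by a size factor of the library, and replicate 1 was scaled apart from replicates 2 to 4.

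Libraries held 12545537 to 34696529 reads on genes, and the lowest count of any of the 36 genes in any library was 12 reads. Untreated 5h replicate 1 and AMG-treated 1h replicate 1 stood apart, with 7.003% and 5.10% of reads on 88 ribosomal protein genes against 2.27% to 3.47% in the other 12. Treated to untreated ratios also ran with transcript length across genes (Spearman rho from -0.43 to 0.42 over the 7 pairs), so the values below were also computed after each library was corrected for length. All 8 fibroblast markers examined (such as Col1a1 and Pdgfra) had at least 3 reads in every library. Their summed level at 5 h in replicates 2 to 4 was 344719 to 497137 normalised counts untreated and 252808 to 334815 treated, with no overlap, and its part in the results was not tested. Most of this sum was Col1a1 and Col1a2. Col1a1, Col1a2, Col3a1, Pdgfra, Pdgfrb and Lum were lower in each treated library than in its pair. Dcn went from 5151, 1372 and 3657 to 4224, 1372 and 3556 in replicates 2, 3 and 4. Thy1 went from 1339, 14712 and 1068 to 1723, 14412 and 1473. Summed markers of leukocytes were higher in each treated library than in its pair (419, 237 and 1464 against 776, 512 and 1800 in replicates 2, 3 and 4). Of them Cd14 went from 152, 73.8 and 174 to 565, 307 and 640, while Lyz2 went from 158, 76.6 and 978 to 127, 95.9 and 916 and Ptprc was at 0 to 11.9 and 0 to 11.3. The adipocyte sum was also higher in each pair (1163, 294 and 259 against 2067, 338 and 421) and was nearly all Fabp4, with Adipoq, Plin1 and Lep at 0 throughout. The skeletal muscle sum was lower in each pair (2900 against 1747, 7291 against 5494 and 6902 against 4548) and was nearly all Acta1, with Myh4 at 0. The part of these lists in the results was not tested. Keratinocyte sums were at 23.7 to 75.9 untreated and 31.2 to 58.5 treated, and red blood cell sums at 0 to 0.541 and 0 to 1.13. In RNA from whole cultures, fewer cells of a type and less RNA per cell cannot be told apart.

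The element that NRF2 binds can be looked up in promoter sequence without the expression values. RefSeq promoter windows of GRCm38.p6, from 250 bases before to 50 bases after a start site, were held for 31 of the 36 genes (42 windows). The core of the antioxidant response element, TGACNNNGC on either strand, was present in 12 of the 31 genes (38.7%) against 13.99% of all 27025 genes with a window. By window the shares were 31.0% of 42 and 12.4% of 32851. Of the 10 genes with a window that were higher at 5 h, 6 held the core. The AP-1 site TGANTCA, which can overlap it, was present in 6 of the 31 (19.4%) against 8.97% of all genes, and the pair overlapped in Prdx1 and Me1. A match of these letters is a description of the window and not evidence of binding. The matches of the 6 higher genes are given here to show how the core varies, 5′ to 3′ on the strand of the gene, with the core in capitals and positions counted from the annotated start site.
Nfe2l2 (chr2:75704885-75704913, gene on the minus strand, match starting at position -240): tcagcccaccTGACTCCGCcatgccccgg
Mafg (chr11:120633751-120633779, gene on the minus strand, match starting at position -222): ctctgcaggaGCACGGTCAacccggcgag
Gclm (chr3:122245413-122245441, gene on the plus strand, match starting at position -134): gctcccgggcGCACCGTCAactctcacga
Txnrd1 (chr10:82859104-82859132, gene on the plus strand, match starting at position -92): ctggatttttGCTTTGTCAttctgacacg
Srxn1 (chr2:152105542-152105570, gene on the plus strand, match starting at position 28): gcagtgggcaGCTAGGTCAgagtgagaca
Pgd (chr4:149166061-149166089, gene on the minus strand, match starting at position 3): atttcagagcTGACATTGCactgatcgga
The core read TGAC on the strand of the gene in Nfe2l2 and Pgd, and as its reverse complement, ending in GTCA, in Mafg, Gclm, Txnrd1 and Srxn1. The matches of Srxn1 and Pgd lay just after the annotated start and the other 4 before it. The Srxn1 window also held 2 AP-1 sites. Slc7a11, Nqo1, Sqstm1 and Gstp1 were higher at 5 h and held no core in these short windows, Gstp1 held an AP-1 site, and Gsr and Abcc1 had no window.

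The main question was how AMG changed these genes at 5 h, in the 3 untreated and 3 treated libraries of replicates 2 to 4. With limma on log2(normalised count + 1) and Benjamini-Hochberg adjustment over 13096 genes, 12 of the 36 were higher at an adjusted p under 0.05, beside 0.97% of all genes. None of the 36 was lower (0 genes at that threshold), beside 0.267% of all genes, and DESeq2 also called 0 lower. At an unadjusted p under 0.05, 21 of the 36 were higher (11.9% of all genes) and 2, Idh1 and Ephx1, were lower (11.1% of all genes). Libraries were also taken as paired by replicate number, and with the number as a block 27 of the 36 were higher (17.9% of all genes) and 2 were lower (19.3% of all genes). Standard errors (SE) below are from limma without the block unless stated, also where an adjusted p with the block stands beside them. All 3 treated values lay above all 3 untreated values in 20 of the 36 (15.1% of all genes) and below them in 1 (13.6% of all genes). The median log2 fold change was 0.78 over the 36 and -0.018 over all genes tested. Together the 36 took 0.452% to 0.497% of reads in the untreated libraries of replicates 2 to 4 and 0.844% to 1.21% in the treated ones. In replicate 1 at 5 h the share was 1.00% untreated, in the library rich in ribosomal protein reads, and 0.898% treated. At 1, 12 and 24 h it was 0.709%, 0.601% and 0.551% untreated and 0.972%, 1.04% and 1.21% treated.

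The number of genes called moved with the choice of libraries, and so did the share of all genes. When AMG-treated 5h replicate 3 was left out, 18 of the 36 were higher (8.75% of all genes) and 1, Idh1, was lower (8.05% of all genes). Leaving out Untreated 5h replicate 2, 3 or 4 left 1, 3 and 2 higher (0.0764%, 0.313% and 0.0687% of all genes). Leaving out AMG-treated 5h replicate 2 or 4 left 1 each (0.00764% and 0.0458% of all genes). Slc7a11 was called in 24 of the 24 settings tried. With the replicate block and replicate 2, 3 or 4 left out, 21, 26 and 23 were higher (5.53%, 25.0% and 10.3% of all genes). With all 4 replicates and the block, so with the Untreated 5h library rich in ribosomal protein reads, 7 of the 36 were higher (2.58% of all genes), namely Nfe2l2, Mafg, Gclm, Txnrd1, Srxn1, Slc7a11 and Osgin1. With length corrected as well 13 were (5.88% of all genes). Without a block, DESeq2 called Gclc, Prdx1, Prdx6, Abcc4, Cbr3 and Osgin1 beside the 12. Without AMG-treated 5h replicate 3, the genes called beside the 12 were Txn1, Prdx1, Taldo1, Abcc4, Cbr3 and Osgin1.

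**Figure D1:**
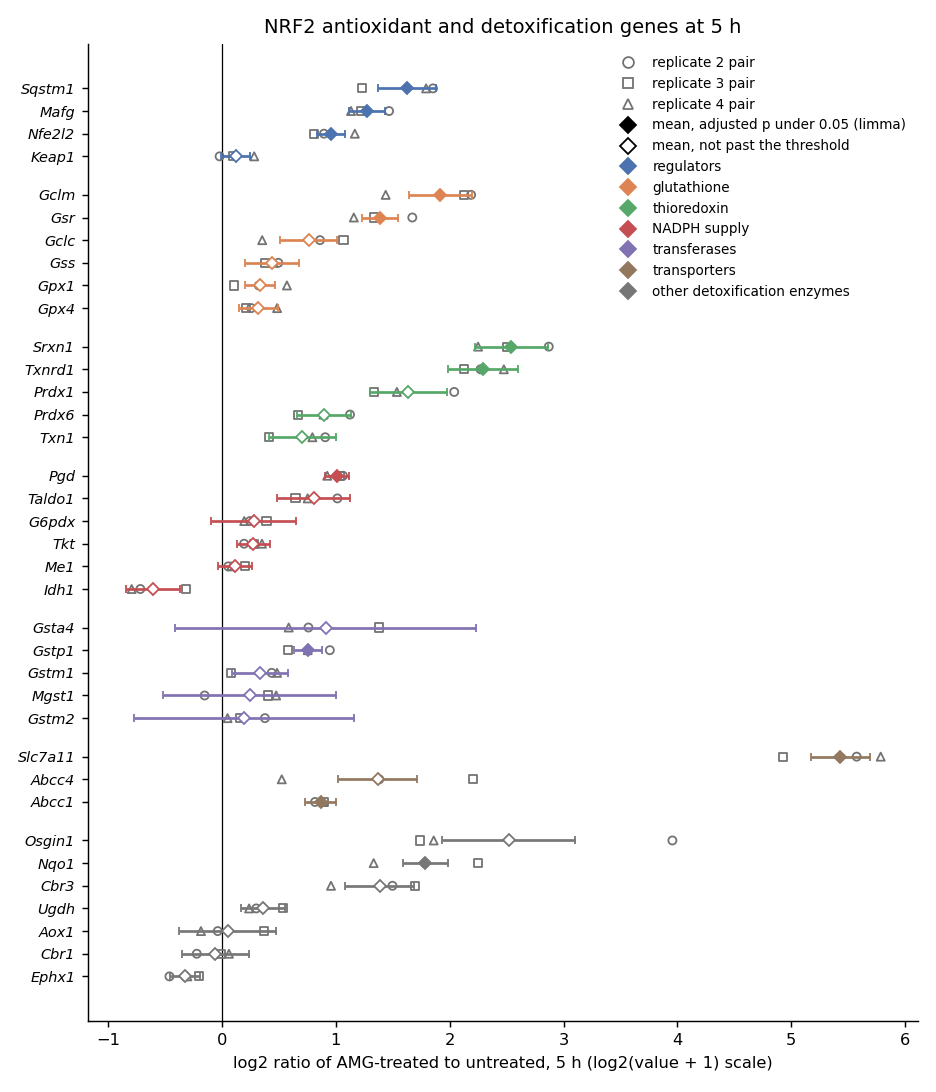
Log2 ratio of AMG-treated to untreated cells at 5 h for the 36 genes, by function. Grey open symbols are the ratios of the 3 replicate pairs, diamonds are the means with the standard error of the limma fit without the block, and filled diamonds mark the 12 genes past the threshold in that fit. Slc7a11 stands at 5.43, and Idh1, Ephx1 and Cbr1 are the 3 genes with a mean below 0.

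Of the 4 regulators, 3 were higher at 5 h, with a group median of 1.12. Nfe2l2, which encodes NRF2 itself (chromosome 2, 75675513 to 75704641, minus strand, GRCm38), was at 2423, 2303 and 2027 normalised counts in untreated replicates 2, 3 and 4 and at 4512, 4034 and 4553 with AMG. The treated values lay between 4034 and 4553, clear of the untreated ones, for a log2 fold change of 0.96 (SE 0.12) and an adjusted p of 0.023. Mafg, a small MAF partner of NRF2 (chromosome 11, 120625117 to 120633600, minus strand), was at 1108, 961 and 1208 untreated and 3066, 2241 and 2652 treated. It rose by 1.27 (SE 0.16) on the log2 scale with an adjusted p of 0.021. Sqstm1 (chromosome 11, 50199366 to 50210827, minus strand) encodes p62, an autophagy receptor that draws KEAP1 away from NRF2. Its values were 7241, 5696 and 5952 untreated and 26169.7, 13338 and 20631 treated, a change of 1.62 (SE 0.26) with an adjusted p of 0.041, and replicate 3 had the lowest treated value. Keap1, the inhibitor, was at 1180.3, 1012 and 1051 untreated and 1164, 1085 and 1279.7 treated. Its groups overlapped and it did not pass the test with or without the block (log2 fold change 0.12 (SE 0.13), adjusted p = 0.59 and 0.37). Exons of Mafg overlap Sirt7 on the same strand, where strand does not tell their reads apart. Exons of Sqstm1 and Keap1 overlap genes on the opposite strand, so reads of those pairs may be shared where counting ignored strand.

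Of the 6 glutathione genes, 2 were higher, and all 6 were with the replicate block, with a group median of 0.60. Gclm is the modifier subunit of the enzyme that makes the first bond of glutathione (chromosome 3, 122245557 to 122270732, plus strand). It was at 982, 671 and 802 untreated and 4479.7, 2932 and 2175 treated, the lowest treated value being above the highest untreated value. Its log2 fold change was 1.92 (SE 0.28) with an adjusted p of 0.037. Gclc, the catalytic subunit of the same enzyme, was at 517, 645 and 534 untreated and 940.2, 1353 and 683 treated. Its groups did not overlap either, but the pair ratios of 0.86, 1.07 and 0.35 were uneven and the change of 0.76 (SE 0.25) passed limma with the block but not without it (adjusted p = 0.15 without and 0.0038 with it, and 0.045 in DESeq2 without a block). Gsr, which returns oxidised glutathione to its reduced form (chromosome 8, 33652523 to 33698163, plus strand), went from 439, 414 and 478 to 1401, 1043 and 1067. The change was 1.39 (SE 0.16) with an adjusted p of 0.019, and the untreated values lay close together. Gss, the second enzyme of glutathione synthesis, was at 1935, 1346 and 2006 untreated and 2729, 1750.3 and 2747 treated, with overlapping groups and a change of 0.44 (SE 0.24) that passed limma with the block but not without it (adjusted p = 0.30 and 0.0051). The peroxidases Gpx1 and Gpx4 reduce hydrogen peroxide and lipid peroxides with glutathione. Gpx1 was at 5291, 5134 and 4635 untreated and 6625, 5543 and 6886 treated, and Gpx4 at 4754, 3780.4 and 4469.9 untreated and 5686, 4381 and 6256 treated. They differed by 0.34 (SE 0.13) and 0.32 (SE 0.17), which passed limma with the block but not without it (adjusted p = 0.031 and 0.024). Both calls were lost with the block once length was corrected (0.05, adjusted p = 0.65 for Gpx1 and 0.09, adjusted p = 0.43 for Gpx4), and their means turned below 0 with all 4 replicates. Exons of Gclm and Gss overlap other annotated genes.

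The thioredoxin group had a median of 1.64, with 2 of its 5 genes higher and all 5 with the replicate block. Srxn1 encodes sulfiredoxin, which repairs overoxidised peroxiredoxins (chromosome 2, 152105516 to 152111376, plus strand). Its normalised counts were 3094, 1838 and 2809 untreated and 22626, 10447 and 13362 treated. Each pair was up by at least 2.25 on the log2 scale, and the mean change was 2.54 (SE 0.32) with an adjusted p of 0.022. Txnrd1, the cytosolic thioredoxin reductase (chromosome 10, 82833951 to 82897712, plus strand), was at 6803, 3919.6 and 5427 untreated and 32840.4, 17133 and 30192 treated. It changed by 2.29 (SE 0.30) with an adjusted p of 0.027, and replicate 3 was the lowest in both arms. Per kilobase of exon, the mean treated level was 5489 normalised counts for Srxn1 and 3771 for Txnrd1, against 915 and 759.7 untreated. Prdx1, an abundant peroxiredoxin, went from 10753, 7147 and 8328 to 44225, 17996 and 24161. Its groups did not overlap and its change was 1.64 (SE 0.34), but the treated values spread widely and the adjusted p was 0.072 (4.9e-05 with the block). Prdx6, which also reduces lipid peroxides, was at 2824, 4761 and 2883 untreated and 6159, 7560.3 and 5355 treated, a change of 0.89 (SE 0.24) that passed limma with the block but not without it (adjusted p = 0.11 and 3.9e-04, and 0.02 in DESeq2). Txn1, the thioredoxin that Txnrd1 recycles, was at 4639.7, 3186 and 4459 untreated and 8704, 4254 and 7737 treated, with a change of 0.71 (SE 0.29) that passed limma with the block but not without it (adjusted p = 0.21 and 0.0016). It also passed unblocked without AMG-treated 5h replicate 3 (1.02, adjusted p = 0.023). Its change was smaller with length correction and the block (0.34, adjusted p = 0.0093) and with all 4 replicates and the block (0.25, adjusted p = 0.75).

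NADPH is the electron source of both systems, and of its 6 supply genes 1 was higher, 4 were higher with the replicate block and 1 was lower with it, with a group median of 0.28. Pgd, the 6-phosphogluconate dehydrogenase of the pentose phosphate pathway (chromosome 4, 149149991 to 149166771, minus strand), had the tightest values of the group. It was at 4512, 4569.9 and 4648 untreated and 9428, 9366 and 8826 treated, a change of 1.01 (SE 0.11) with an adjusted p of 0.019. G6pdx, which opens the same pathway, was at 807, 1622 and 917 untreated and 958, 2128 and 1050.4 treated, high in replicate 3 of both arms. Its change of 0.28 (SE 0.38 without the block and 0.096 with it) passed limma with the block but not without it (adjusted p = 0.69 and 0.047), and not once length was corrected as well (0.19, adjusted p = 0.13). Its exons overlap those of Ikbkg on the opposite strand, those of Me1 an antisense gene and those of Tkt a microRNA gene. Taldo1 and Tkt, which rearrange the sugars of that pathway, differed by 0.80 (SE 0.32) and 0.28 (SE 0.14). Taldo1 was at 3314, 2428 and 4512 untreated and 6695, 3802 and 7606 treated, with overlapping groups, and Tkt at 4995, 4644 and 5607 untreated and 5719, 5644 and 7158 treated, without overlap. Both passed limma with the block but not without it (adjusted p = 5.1e-04 and 0.032). Me1, the cytosolic malic enzyme, was at 2679.6, 1984 and 2325 untreated and 2785, 2281 and 2461 treated and passed in neither fit (log2 fold change 0.11 (SE 0.15), adjusted p = 0.69 and 0.34). Idh1, the cytosolic isocitrate dehydrogenase, was lower in each of the 3 pairs. Its values were 1614, 1806 and 1366 untreated and 982, 1454 and 788 treated, a change of -0.61 (SE 0.24) that passed limma with the block but not without it (adjusted p = 0.19 and 0.0041).

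Glutathione transferases attach glutathione to reactive compounds, and 1 of the 5 was higher at 5 h, 2 with the replicate block, with a group median of 0.33. Gstp1, the pi-class enzyme (chromosome 19, 4035407 to 4037985, minus strand), was at 582, 684 and 628 untreated and 1123, 1021 and 1059 treated. Its groups were 684 at most untreated and 1021 at least treated, for a change of 0.76 (SE 0.12) with an adjusted p of 0.044. It was called in 13 of 24 settings, and not in edgeR (adjusted p = 0.0501) or with length correction (0.50, adjusted p = 0.13). With all 4 replicates and the block it was at 0.33, adjusted p = 0.63, and at 0.30, adjusted p = 0.29 with length correction added. Gsta4, which acts on lipid peroxidation products, was far higher in replicate 3 of both arms, at 62.7, 388 and 29.7 untreated and 107, 1015 and 45.2 treated. Its pair ratios were 0.76, 1.38 and 0.59, and the change was 0.91 (SE 1.32 without the block and 0.21 with it). The change passed limma with the block but not without it (adjusted p = 0.71 and 0.0093), a call lost once length was corrected as well (0.59, adjusted p = 0.074). Gstm2 was also high in replicate 3, at 398, 1076 and 132 untreated and 518, 1205 and 137 treated. Gstm1 was at 352, 480.4 and 268 untreated and 477, 507 and 375 treated, and Mgst1, a membrane-bound transferase, at 139, 185 and 36.2 untreated and 125, 246 and 50.8 treated. These 3 genes overlapped between groups and did not pass with or without the block, with log2 fold changes of 0.20 (SE 0.97) for Gstm2, 0.33 (SE 0.25) for Gstm1 and 0.24 (SE 0.76) for Mgst1. With the block the SE was 0.13 for Gstm2, 0.13 for Gstm1 and 0.21 for Mgst1. The signs of Gsta4, Gstm2 and Mgst1 turned when AMG-treated 5h replicate 3 was left out, and the group median was then -0.29. Transferases of one class are similar in sequence, so the split of reads between Gstp1, Gstm1, Gstm2 and their close relatives is uncertain.

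All 3 transporters had treated values above every untreated value, 2 were higher at 5 h and all 3 were with the replicate block. Slc7a11 encodes xCT, which takes up cystine in exchange for glutamate (chromosome 3, 49892526 to 50443614, minus strand). Its level was low in untreated cells, at 48.4, 41.8 and 34.6 normalised counts, and reached 2351, 1300.2 and 1962 with AMG. The group means were 41.6 ± 6.89 and 1871 ± 531 (SD, n = 3), a change of 5.43 (SE 0.26) with an adjusted p of 0.0021. Among the 13096 genes tested Slc7a11 had the lowest p, at rank 1, and the fold change at rank 13. Per kilobase of exon its mean level was 2.99 untreated, the lowest of the 36 genes, and 134 treated. Abcc1, an exporter of glutathione conjugates (chromosome 16, 14361558 to 14475737, plus strand), went from 3863, 3612 and 4361 to 6811, 6718 and 8081, a change of 0.87 (SE 0.13) with an adjusted p of 0.041. Its pair ratios of 0.82, 0.90 and 0.89 were nearly equal. Abcc4, a related exporter, went from 507, 497 and 567 to 1323, 2289.7 and 817, with the highest treated value in replicate 3. Its change of 1.37 (SE 0.35) passed limma with the block but not without it (adjusted p = 0.10 and 0.0032).

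Of the 7 other detoxification enzymes, 1 was higher, and with the replicate block 4 were higher and 1 was lower, with a group median of 0.36. Nqo1, the quinone reductase most often used to read NRF2 activity (chromosome 8, 107388225 to 107403206, minus strand), was at 826, 737 and 1175 untreated and 2844, 3502 and 2960.4 treated. The mean rose from 912 ± 232 to 3102 ± 351 (SD, n = 3), a change of 1.79 (SE 0.20) with an adjusted p of 0.019. Osgin1, a growth inhibitor induced by oxidative stress, was at 94.6, 82.2 and 106 untreated and 1482, 276 and 387 treated. The treated value of replicate 2 was far above the others, and the change of 2.52 (SE 0.59) passed limma with the block but not without it (adjusted p = 0.089 and 0.0012). Cbr3, a carbonyl reductase, went from 375, 199 and 348 to 1061, 648 and 678, with groups that did not overlap and a change of 1.38 (SE 0.30) that passed limma with the block but not without it (adjusted p = 0.079 and 3.0e-04). Its close relative Cbr1 was at 614, 322 and 469 untreated and 527, 319 and 490.2 treated, overlapped and passed in neither fit (log2 fold change -0.06 (SE 0.29)). Ugdh, which makes the sugar donor of glucuronidation, was at 3954, 5131 and 5200.1 untreated and 4875, 7459 and 6138 treated, a change of 0.36 (SE 0.19) that passed limma with the block but not without it (adjusted p = 0.31 and 0.015). Aox1, an aldehyde oxidase, was at 168, 262 and 137 untreated and 164, 339 and 121 treated and passed in neither fit (log2 fold change 0.05 (SE 0.42)). Ephx1, the microsomal epoxide hydrolase, was the 1 gene of the 36 with every treated value below every untreated value. Exons of Ephx1 and Ugdh overlap other annotated genes on the same strand. Ephx1 was at 5399.8, 5610.0 and 4939.9 untreated and 3925, 4876 and 4004 treated, a change of -0.32 (SE 0.13) that passed limma with the block but not without it (adjusted p = 0.21 and 0.021).

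**Figure D2:**
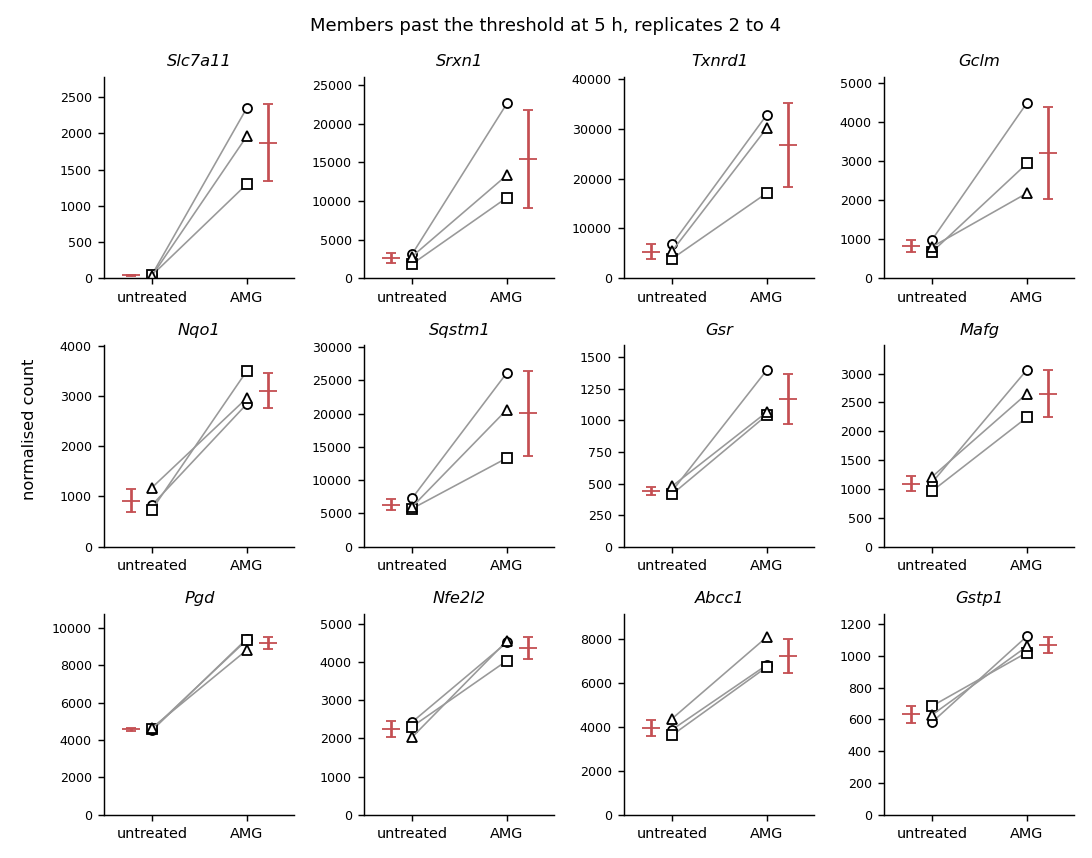
Normalised counts at 5 h of the 12 genes past the threshold, in untreated and AMG-treated replicates 2 (circle), 3 (square) and 4 (triangle), on axes that start at 0. Grey lines join libraries with the same replicate number and red bars give the mean ± SD (n = 3). In each of the 12 panels all 3 treated values lie above all 3 untreated values.

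A wider list of 85 genes of the same pathways, such as other redoxins, haem and iron genes, transferases and reductases, was used as a setting for the 36. Both lists were chosen with earlier results of these data known, so their values are described side by side and test no difference between them. Of the 85, 80 were tested. With limma 3 were higher (0.97% of all genes) and 0 were lower (0.267% of all genes) at an adjusted p under 0.05. The median log2 fold change of the 80 was 0.22 beside 0.78 for the 36. With the replicate block 29 of the 80 were higher (17.9% of all genes) and 3 were lower (19.3% of all genes). The 3 higher genes were Hmox1, which breaks down haem (from 10279.5 ± 2462 to 101732 ± 17188 normalised counts, SD, n = 3, log2 fold change 3.32 (SE 0.23), adjusted p = 0.0057), Blvrb, a biliverdin reductase (1.78 (SE 0.23), adjusted p = 0.022), and Sod2, the mitochondrial superoxide dismutase (1.54 (SE 0.25), adjusted p = 0.044). DESeq2 called 18 of the 80 higher and 1 lower, and 18 of the 36 higher and 0 lower, beside 6.52% and 4.43% of all genes.

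Replicate 1 was used to follow the genes from 1 to 24 h. It had 1 library per arm and time, so there is no replicate check and no test, and the counts are of ratios past 1.5-fold among 13498 genes. At 1 h, 16 of the 36 were up (22.6% of all genes) and 3 were down (25.1% of all genes). At 5 h, 10 were up (25.6% of all genes) and 10 were down (25.4% of all genes). At 12 h, 18 were up (11.8% of all genes) and 4 were down (13.6% of all genes), and at 24 h 24 were up (12.8% of all genes) and 1 was down (15.3% of all genes). The median log2 ratios of the 36 were 0.47, 0.05, 0.59 and 1.00 at 1, 5, 12 and 24 h, beside -0.064, -0.005, -0.0099 and 0.017 for all genes.

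The 2 libraries rich in ribosomal protein reads enter the ratios at 1 and 5 h, and no ratio at 12 or 24 h rests on them. After length correction 7 of the 36 were up and 2 down at 1 h (17.9% and 20.2% of all genes), and 13 were up and 5 down at 5 h (22.1% and 20.8% of all genes). At 12 h 20 were up and 3 down (11.9% and 13.0% of all genes), and at 24 h 24 were up and 4 down (11.7% and 15.4% of all genes). The 10 genes down at 5 h were Gpx1, Gpx4, Txn1, Prdx1, Idh1, Gsta4, Gstm2, Gstp1, Mgst1 and Cbr1. For Gpx4 the untreated library rich in ribosomal protein reads held 31576 normalised counts and the treated library 7563, a log2 ratio of -2.06, while the pairs of replicates 2, 3 and 4 gave 0.26, 0.21 and 0.48. Its length-corrected ratio in replicate 1 was -1.45. For Gstp1 the ratio was -0.95 and -0.28 after correction.

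**Figure D3:**
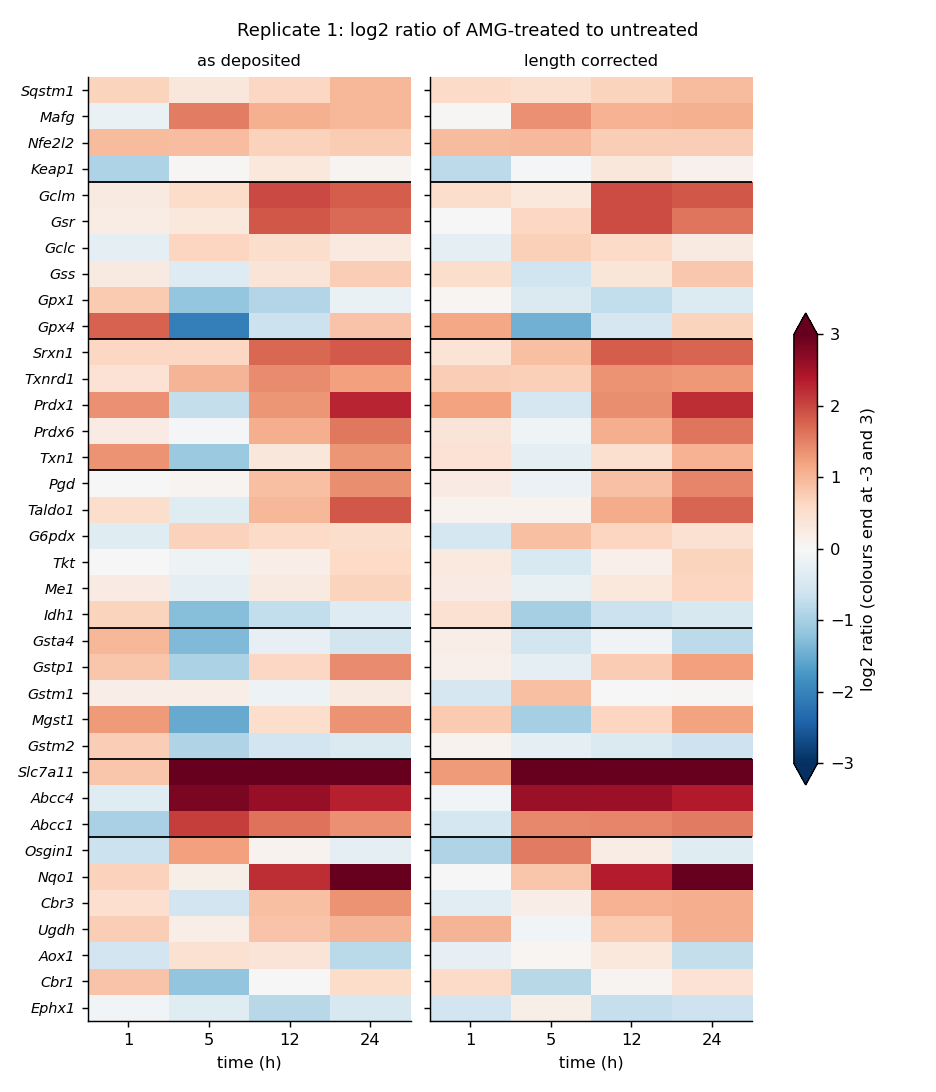
Log2 ratio of AMG-treated to untreated cells in replicate 1 at 1, 5, 12 and 24 h for the 36 genes, by function, as deposited (left) and after length correction (right), with red for higher and blue for lower in treated cells and colours that end at -3 and 3. Slc7a11 is dark red from 5 h on in both panels, and the blue cells at 5 h in the left panel are paler in the right one for Gpx1, Gpx4, Txn1 and Gstp1.

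Replicate 1 did not enter the test at 5 h, so it shows the 12 higher genes in other libraries. Of these 12, 6 were past 1.5-fold up at 1 h and 6 at 5 h. All 12 were up at 12 h, and all 12 at 24 h, with and without length correction. Gstp1 was the 1 of the 12 below the untreated library at 5 h. The other 24 genes had 10, 4, 6 and 12 up at 1, 5, 12 and 24 h. Of all genes 22.6%, 25.6%, 11.8% and 12.8% were up at these times, before length correction. Over all 36, 18 genes were up at both 12 and 24 h, and 3 (Nfe2l2, Srxn1 and Slc7a11) were up at all 4 times. The share of all genes up at several times together was not computed. After length correction 19 were up at both later times, and the 3 up at all 4 times were Nfe2l2, Txnrd1 and Slc7a11, with Srxn1 at 0.41 at 1 h.

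The genes differed in when the ratio was largest. Nqo1 had log2 ratios of 0.70, 0.17, 2.21 and 3.25 at 1, 5, 12 and 24 h, so that the largest was at 24 h. After length correction they were 0.02, 0.84, 2.36 and 3.05, with 5 h above 1 h. Its untreated counts were 3510.4, 7784, 4307 and 1898 and its treated counts 5703, 8766, 19918 and 18119. Slc7a11 had log2 ratios of 0.83, 4.56, 3.29 and 4.20, and the treated cells held 115, 487, 579 and 581 normalised counts against 64.2, 19.7, 58.5 and 30.6 untreated. After length correction its ratios were 1.27, 3.95, 3.13 and 4.38. Its 3 later treated libraries were alike and the untreated ones stayed low at each time. The ratio of Slc7a11 at 5 h rests on 12 untreated reads, in the library rich in ribosomal protein reads. Nfe2l2 had similar ratios at each time, of 0.95, 0.92, 0.69 and 0.75 (0.94, 0.98, 0.73 and 0.73 after length correction). Gclm and Gsr had larger ratios at 12 and 24 h than at 1 and 5 h, with 0.26, 0.55, 1.99 and 1.82 for Gclm and 0.23, 0.31, 1.85 and 1.70 for Gsr. After length correction these were 0.52, 0.31, 1.95 and 1.87 and 0.00, 0.61, 1.95 and 1.61. Osgin1 had -0.64, 1.24, 0.11 and -0.27, with its largest value at 5 h (-0.89, 1.56, 0.21 and -0.36 after length correction). Abcc4 had -0.35, 2.82, 2.62 and 2.33, high from 5 h on (-0.09, 2.58, 2.58 and 2.39 after length correction). Prdx1 had 1.37, -0.72, 1.32 and 2.29 and Taldo1 0.53, -0.36, 0.99 and 1.87, both largest at 24 h. After length correction Prdx1 had 1.21, -0.50, 1.40 and 2.22 and Taldo1 0.10, 0.10, 1.12 and 1.74. Below the untreated library past 1.5-fold were Keap1, Abcc1 and Osgin1 at 1 h, Gpx1, Gpx4, Idh1 and Ephx1 at 12 h, and Aox1 at 24 h.

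For some genes the untreated level also moved over time. Srxn1 was at 16243, 10331, 2532 and 2352 normalised counts in untreated cells at 1, 5, 12 and 24 h, and at 24954, 15841, 8421 and 8359.9 with AMG. The untreated level dropped by 2.79 on the log2 scale from 1 to 24 h and the treated level by 1.58. Both arms were thus highest at 1 h, and AMG was above untreated at each time. Txnrd1 was at 18076, 13251, 5561 and 4958 untreated, a log2 change of -1.87 from 1 to 24 h, and at 24556, 26806, 14831 and 11729.8 treated. Ugdh changed by -1.50 and Nqo1 by -0.89 in untreated cells over the same time. In the untreated arm 10 of the 36 were down past 1.5-fold from 1 to 24 h, beside 15.3% of all genes, and 2 were up, beside 16.2% of all genes. The median change was -0.35 over the 36 and -0.017 over all genes. In the treated arm 8 of the 36 were down and 14 up, beside 27.8% and 27.9% of all genes, a comparison that includes the treated 1 h library rich in ribosomal protein reads.

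**Figure D4:**
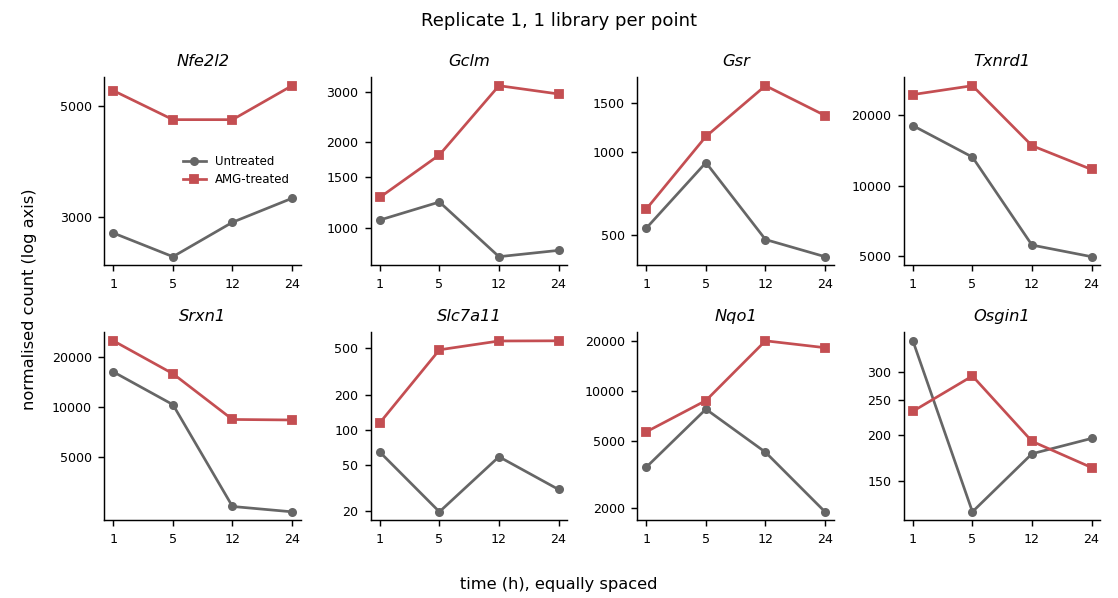
Normalised counts of 8 of the genes in replicate 1 at 1, 5, 12 and 24 h (equally spaced), untreated in grey and AMG-treated in red, 1 library per point and a log axis. The red line is above the grey one at every time except for Osgin1 at 1 and 24 h, and both lines of Srxn1 and Txnrd1 end lower than they begin.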

How the data were processed

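RNA of 14 libraries was measured. Per the labels, the authors checked reads with FastQC 0.11.5, aligned them to mm10 with TopHat2 2.0.13, used SAMtools 0.1.19.24, counted reads per gene with HTSeq 0.5.3p3 and normalised with DESeq. Neither the gene annotation nor the strand option of the counting is given in the sources used here. The deposited values are a normalised signal, read counts divided by a size factor, with the 8 libraries of replicate 1 and the 6 of replicates 2 to 4 scaled separately. Whole reads were recovered for 100% of values within 0.1.

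Groups and replicate numbers came from sample titles. The main test was limma 3.58.1 in R 4.3.3 (lmFit, eBayes with trend, two-sided) on log2(value + 1), which understates changes of low genes, over genes with a mean of at least 10, without a block. Deviations of libraries from their group means correlated with r = 0.65, 0.76 and 0.70 for the same replicate number and from -0.59 to 0.12 otherwise, so libraries were taken as paired by number, without a label that states what they share. On the recovered reads, edgeR 4.0.16 and DESeq2 1.42.0 were alternatives. Length correction took a lowess curve (span 0.3) of each library's deviations on exonic length (GENCODE, GRCm38). The main limma fit, limma and edgeR with the block, and length-corrected limma with the block were also run on simulated data. The other fits were not. Replicate 1 has no test. All 36 genes are named, and of the wider list the genes past the threshold. The members and lists were chosen with earlier results of these data known. Libraries held 12545537 to 34696529 reads, the lowest member count was 12, and reads carry no molecular identifiers.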

Additional observations from a re-analysis of the deposited data

Results flagged for a closer look

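At 5 h the 4 within-pair log2 ratios of each of the 36 genes were searched for a replicate far from the others, by Dixon's gap over range, whose critical value chance passes in about 1 of 20 groups. In 4 genes replicate 1 stood apart from replicates 2 to 4. Its ratio was -0.39 for Gss, -2.06 for Gpx4, 0.080 for Pgd and 2.06 for Abcc1. The other replicates lay between 0.38 and 0.50 for Gss, 0.21 and 0.48 for Gpx4, 0.93 and 1.06 for Pgd, and 0.82 and 0.90 for Abcc1. In most of the remaining genes replicate 1 was also the farthest, with a gap over range below the critical value, such as 0.80 for Gstp1 and 0.76 for Txnrd1. The share of all genes past that value was not computed. The untreated library of replicate 1 at 5 h held 7.003% of its reads on ribosomal protein genes, and its part in these ratios was not tested. Replicate 1 was also scaled in another table than replicates 2 to 4.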

How the results depend on the processing

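The number of the 36 genes higher at 5 h stayed within 1.5 times of 12 with a pseudocount of 0.1 or of 10, with no filter on low genes, with a minimum mean of 50, and with upper quartile scaling, edgeR, DESeq2 and length correction. It was 27 with the replicate block in limma and in edgeR (2 lower in each), 23 with length correction and the replicate block (2 lower), 4 with limma without trend and 7 with all 4 replicates and the replicate block. It was 13 (1 lower) when length correction was added to that, an alternative chosen after seeing the data. Leaving out 1 library gave 1 to 18 higher and 0 to 1 lower, and leaving out 1 pair with the block 21 to 26 higher and 0 to 2 lower. Over all 13096 genes the main fit called 127 higher and 35 lower. Limma without trend called 56 and 24, DESeq2 854 and 580, and the block 2345 and 2527. Without AMG-treated 5h replicate 3 these were 1146 and 1054, and without AMG-treated 5h replicate 2 they were 1 and 0. With the block and replicate 2, 3 or 4 left out they were 724 and 695, 3269 and 3531, and 1346 and 1328. Length correction with the block called 2258 and 2009 of 12461 genes. All 4 replicates with the block called 329 and 170 of 12735, and 713 and 468 of 12136 with length correction added.

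Of the wider list, 3 were higher and 0 lower. The numbers higher were 6 with all genes above 0, 29 with the replicate block in limma and in edgeR (3 lower in each), 1 with limma without trend, 18 with DESeq2 (1 lower), 30 with length correction and the block (3 lower), 7 with all 4 replicates and the block and 10 when length correction was added. Leaving out 1 library gave 0 to 20 higher and 0 to 1 lower, and leaving out 1 pair with the block 15 to 41 higher and 1 to 6 lower. Over all 13096 genes, leaving out 1 library gave 1 to 1146 higher and 0 to 1054 lower. Leaving out 1 pair with the block gave 724 to 3269 of all genes higher and 695 to 3531 lower. With all genes above 0, 131 of 21663 genes were higher and 37 lower. In replicate 1, length correction took the genes up at 1 h from 16 to 7, those down at 5 h from 10 to 5 and those down at 24 h from 1 to 4.

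Signs turned for genes that did not pass the main test, of which Gpx1, Gpx4, G6pdx and Gsta4 had passed limma with the replicate block. With all 4 replicates and the replicate block the log2 fold changes were -0.037 for Gpx1, -0.28 for Gpx4, -0.080 for Gstm2 and -0.19 for Mgst1, and with length correction added -0.073, -0.30, -0.11 and -0.21. With length correction, with or without the block, Gstm2 was at -0.043. Leaving out 1 library gave ranges of -0.083 to 0.58 for G6pdx, -0.37 to 1.96 for Gsta4, -0.57 to 1.04 for Gstm2, -0.46 to 0.83 for Mgst1, -0.30 to 0.17 for Cbr1, -0.37 to 0.37 for Aox1 and -0.29 to 0.83 for the median of the transferases. The sign of each of these turned without AMG-treated 5h replicate 3. Gstm2, Mgst1 and Aox1 turned without Untreated 5h replicate 4 too (-0.57, -0.46 and -0.15), and Cbr1 and Aox1 without Untreated 5h replicate 2 (0.16 and -0.0059). With the block, Cbr1 was at 0.025 without replicate 2 and Aox1 at -0.11 without replicate 3. The cause of these changes was not tested. None of the 12 genes past the threshold turned sign in any setting.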
